A study of Mus musculus with 66 samples.

Results

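The metallothionein genes Mt1, Mt2 and Mt3 were examined by RNASeq in 5 parts of the central nervous system of mice with spontaneous Rorb mutations. The genes were taken by symbol and make up 3 of the 45706 gene identifiers in the count tables. They were chosen because values of these same libraries had drawn attention to them, so their differences between tissues, strains and Rorb alleles are given as a description. Rorb encodes the nuclear receptor RORβ, and mice lacking it walk with a high-stepping gait. The series holds 66 libraries in 20 groups. Homozygous Rorb h1/h1 mice carry a duplication that lies upstream of Rorb and takes in the first exon of the Rorb1 isoform. Rorb h2/h2 and h3/h3 mice arose on the albino strain B6(Cg)-Tyr c-2J/J, and the causal mutation is not known for either. Rorb h4/h4 mice arose on B6.129S7-Il1r1 tm1/mx/J and carry a premature stop, which the paper predicts to affect both Rorb isoforms. These 4 lines were compared with the same C57BL/6J controls, 3 libraries per tissue, so neither the coat colour mutation nor the Il1r1 allele of the founding strains was matched in the controls. Rorb h5/h5 mice, which lost the start codon of Rorb1, were compared with DBA/1J controls. Brains cut sagittally, of which 1 side was used (called brain here), and spinal cords came from the same 24 mice, 7.9 to 9.6 weeks of age. There were 4 mice in each of the h2/h2, h3/h3 and h4/h4 groups and 3 in the rest. C57BL/6J and Rorb h1/h1 mice were all 8.0 weeks of age. Rorb h2/h2 mice were 7.9 or 9.4 weeks, h3/h3 mice 8.0 to 9.6 and h4/h4 mice 8.4 to 8.6. DBA/1J mice were 8.4 to 8.9 weeks of age and Rorb h5/h5 mice 8.4 or 8.7. Age was therefore not matched between Rorb h2/h2, h3/h3 and h4/h4 mice and their controls. Cortex, hippocampus and cerebellum came from 6 other mice, 3 Rorb h5/h5 and 3 DBA/1J, 7.0 weeks of age.

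Metallothioneins are small proteins, rich in cysteine, that hold zinc and copper ions through the sulfur of their cysteine residues and so buffer free metal. Mt1 and Mt2 are made in most tissues and, within the brain, mainly by astrocytes. Their transcription is raised, among other signals, by zinc, through the zinc-sensing factor MTF1 bound to metal response elements in their promoters, and by glucocorticoid hormones. Mt3, first described as a neuronal growth inhibitory factor, is the form made mainly in the central nervous system. Mt4 belongs to stratified epithelia.

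The genes lie side by side on chromosome 8 (GRCm38.p6, RefSeq). Mt3 (ENSMUSG00000031760) spans chr8:94152607-94154148, Mt2 (ENSMUSG00000031762) spans chr8:94172618-94173567 and Mt1 (ENSMUSG00000031765) spans chr8:94178883-94180327. Mt4 (ENSMUSG00000031757), at chr8:94137204-94139031, had between 0 and 2 counts in each of the 66 libraries, so it is not described further. The coding sequences are shown because they carry the defining feature of the family and because the closeness of the genes bears on how well reads separate them. They were read from the GENCODE transcripts on GRCm39, and cysteine codons (TGC or TGT) are in capitals.
Mt1: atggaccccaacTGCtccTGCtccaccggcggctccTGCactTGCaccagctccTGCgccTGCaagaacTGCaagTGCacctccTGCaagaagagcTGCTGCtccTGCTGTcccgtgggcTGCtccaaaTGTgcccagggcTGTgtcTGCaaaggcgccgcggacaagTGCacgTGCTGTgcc
Mt2: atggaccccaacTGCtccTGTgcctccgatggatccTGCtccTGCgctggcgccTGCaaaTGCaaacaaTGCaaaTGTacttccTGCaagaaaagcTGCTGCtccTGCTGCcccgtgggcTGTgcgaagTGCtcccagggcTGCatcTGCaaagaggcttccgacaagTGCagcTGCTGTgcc
Mt3: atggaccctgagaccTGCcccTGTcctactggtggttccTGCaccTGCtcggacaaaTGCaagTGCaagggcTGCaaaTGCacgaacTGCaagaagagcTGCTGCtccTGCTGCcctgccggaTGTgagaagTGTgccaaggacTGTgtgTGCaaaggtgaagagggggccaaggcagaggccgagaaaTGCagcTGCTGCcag
Each gene has 3 coding exons and 20 cysteine codons, which is 32.8% of the 61 codons of Mt1 and of Mt2 and 29.4% of the 68 codons of Mt3. Mt1 and Mt2 were identical at 145 of 183 aligned coding positions, or 79.2%. Mt3 was identical to Mt1 at 64.7% and to Mt2 at 67.2% of 204 aligned positions. The longest run of bases shared by any pair of the whole transcripts was 27. Reads were paired and 150 bases long, and the estimated counts of all 3 genes were whole numbers in 66 of 66 libraries, while 5.07% of all estimated counts in the tables were not whole.

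The DNA around the start of each gene is shown because the response of Mt1 and Mt2 to metal is known to be set there. A window of 250 bases before an annotated RefSeq start (GRCm38.p6, plus strand) was searched on both strands. The core searched for was that of the metal response element, spelled TGCACNC or TGCGCNC. For Mt2 and Mt3 this start is that of the spans given above. The Mt1 window, chr8:94178839-94179088, ends inside the Mt1 span given above, which starts at 94178883, so it was counted from a later start. Most of the Mt1 window therefore lies inside that span. Bases that the GENCODE transcript places inside the gene are left out of the print, and capitals mark the cores. Mt1 is printed over chr8:94178839-94179081, Mt2 over chr8:94172368-94172503 and Mt3 over chr8:94152357-94152591.
Mt1: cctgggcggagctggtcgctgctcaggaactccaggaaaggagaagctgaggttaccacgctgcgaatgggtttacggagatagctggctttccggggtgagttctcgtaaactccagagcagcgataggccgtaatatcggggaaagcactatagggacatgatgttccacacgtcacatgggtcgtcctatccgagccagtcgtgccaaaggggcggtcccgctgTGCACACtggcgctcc
Mt2: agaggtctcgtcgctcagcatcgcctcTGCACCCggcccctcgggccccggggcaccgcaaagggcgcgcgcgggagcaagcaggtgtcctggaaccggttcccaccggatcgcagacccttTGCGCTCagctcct
Mt3: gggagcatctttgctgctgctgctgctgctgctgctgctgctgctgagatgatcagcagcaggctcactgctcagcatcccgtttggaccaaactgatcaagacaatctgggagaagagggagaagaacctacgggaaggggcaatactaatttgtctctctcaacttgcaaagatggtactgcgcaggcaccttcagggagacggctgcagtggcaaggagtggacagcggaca
The full windows held 1 core for Mt1, 3 for Mt2 and 0 for Mt3. The Mt1 core lies inside the Mt1 span given above. Of 32851 RefSeq windows of the same length, 21.4% held at least 1 core and 1.26% held at least 3. Counting continued past the start: the first 200 bases of the annotated transcripts held 4 cores in Mt1, 4 in Mt2 and 3 in Mt3, against at least 3 in 0.885% and at least 4 in 0.181% of 21571 genes. Window and transcript share 7 bases for Mt1, 114 for Mt2, with 1 core counted in both, and 15 for Mt3. A TATAAA box lies 129 bases into the annotated transcript of Mt1, 250 into that of Mt2 and 122 into that of Mt3, so the windows lie further upstream than bases counted from a TATA-driven start would. TGACNNNGC, the core of the antioxidant response element, occurred once in the Mt2 window, among the 114 bases that the GENCODE transcript places inside the gene and that are not printed, and AGGTCA, the half-site bound by ROR receptors, in none of the 3 windows. The shares of all windows with these letters were 10.2% and 14%.

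Libraries held between 32889755 and 59120536 estimated counts, of which Mt1 took 2012 to 6229, Mt2 1146 to 4764 and Mt3 1309 to 4449. No library pair within a group was identical in any of 78 comparisons. Tissue labels matched their marker genes, with Hoxc10 at 43.1 to 56 TPM (a level scaled to transcript length and library size) in spinal cord and at most 0.09 elsewhere. The brain samples differed in how much cerebellum they held. The Purkinje cell gene Pcp2 stood at 232.29, 253.39 and 153.98 TPM in the C57BL/6J brains, at 98.9 to 190.87 TPM in the 4 Rorb h4/h4 brains and at 0.4 TPM in the brain of DBA/1J replicate 1, against 156.92 and 162.23 TPM in the other DBA/1J brains. Brain results are therefore also given with the Pcp2 level as a covariate, and those on DBA/1J brain without replicate 1. The numbering series of the animal identifiers was shared by C57BL/6J and Rorb h1/h1 mice and in part by DBA/1J and h5/h5 mice. Rorb h2/h2, h3/h3 and h4/h4 mice each had a series of their own, so for these lines genotype and series cannot be told apart. In the labels, replicates are separate mice. Fewer cells of a type and less RNA per cell cannot be told apart in bulk tissue.

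All 3 genes were abundant in every tissue, and Mt1 and Mt2 were higher in spinal cord than in brain. In C57BL/6J mice Mt1 stood at 447, 524 and 391 TPM in brain and at 751, 717 and 722 TPM in spinal cord. Mt2 stood at 326, 352 and 284 TPM in brain and at 589, 525 and 549 TPM in spinal cord. The brain and cord ranges were far apart for both genes. Within single mice of all genotypes, the cord level of Mt1 was 1.56 ± 0.20 times the brain level (SD, n = 24 mice, range 1.28 to 2.10), and that of Mt2 was 1.67 ± 0.24 times (range 1.33 to 2.27), above 1 in 24 of 24 mice for either gene. Tissue content differed as well. In C57BL/6J mice the summed TPM of 10 astrocyte markers ran from 5430 to 5699 in cord and from 3548 to 3785 in brain, that of 10 neuronal markers from 3597 to 3716 in cord and from 3821 to 4642 in brain, and that of 6 choroid plexus markers from 18.3 to 23.1 in cord and from 605 to 957 in brain. Their part in the difference between the tissues was not tested. Mt3 was closer between the tissues, at 416, 437 and 403 TPM in C57BL/6J brain and 464, 488 and 449 TPM in C57BL/6J cord. Its cord level was 1.12 ± 0.087 times the brain level (range 0.864 to 1.26) and was above 1 in 22 of 24 mice.

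Within the DBA/1J forebrain and hindbrain the genes parted. Mt3 was highest in hippocampus, at 638, 525 and 516 TPM, intermediate in cortex, at 436, 415 and 355 TPM, and lowest in cerebellum, at 327, 345 and 344 TPM. For Mt2 the values were 409, 478 and 446 TPM in cerebellum, 424, 352 and 344 TPM in hippocampus and 316, 239 and 213 TPM in cortex. Mt1 stood at 571, 579.6 and 577 TPM in cerebellum, 649, 525 and 581 TPM in hippocampus and 505, 391 and 359 TPM in cortex. For Mt1 and Mt2 the hippocampal and cerebellar values overlapped. In the 6 mice with regional samples, hippocampus held more than cortex in 6 of 6 mice for each gene, by 1.35 ± 0.17 times for Mt1, 1.5 ± 0.12 for Mt2 and 1.39 ± 0.10 for Mt3 (SD). Cerebellum over cortex was 1.74 ± 0.37 for Mt2, above 1 in 6 of 6 mice, and 0.787 ± 0.10 for Mt3, above 1 in 0 of 6. For Mt1 it was 1.31 ± 0.22, above 1 in 5 of 6. Tissue content differed along with these contrasts. In DBA/1J mice the summed TPM of 6 choroid plexus markers ran from 1491 to 6189 in hippocampus and from 2542 to 3692 in cerebellum against 22.9 to 876 in cortex, and that of 6 meningeal markers from 196 to 323 and from 191 to 217 against 70.87 to 91.88. Their part in the regional levels was not tested. Hippocampus over cerebellum was 1.79 ± 0.26 for Mt3, above 1 in 6 of 6 mice, 0.889 ± 0.16 for Mt2, above 1 in 2 of 6, and 1.04 ± 0.092 for Mt1, above 1 in 4 of 6. The level of Mt3 relative to Mt1 in the same library averaged 0.588 in DBA/1J cerebellum, 0.957 in hippocampus and 0.971 in cortex, and 0.640 in C57BL/6J cord against 0.932 in C57BL/6J brain.

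Ordered by mean over the 20 groups, Mt1 ran from 729.8 ± 18 TPM in C57BL/6J cord to 369.8 ± 17 TPM in Rorb h2/h2 brain (SD), and each of the 19 neighbouring pairs in that order overlapped. Mt2 ran from 554 ± 33 TPM in C57BL/6J cord to 216 ± 15 TPM in Rorb h2/h2 brain, with 1 of 19 neighbouring pairs apart, that of C57BL/6J cord above h1/h1 cord. Mt3 ran from 559 ± 68 TPM in DBA/1J hippocampus to 282 ± 26 TPM in Rorb h5/h5 cerebellum, with 2 neighbouring pairs apart, h1/h1 brain above DBA/1J cerebellum and DBA/1J above h5/h5 cerebellum.

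**Figure D1:**
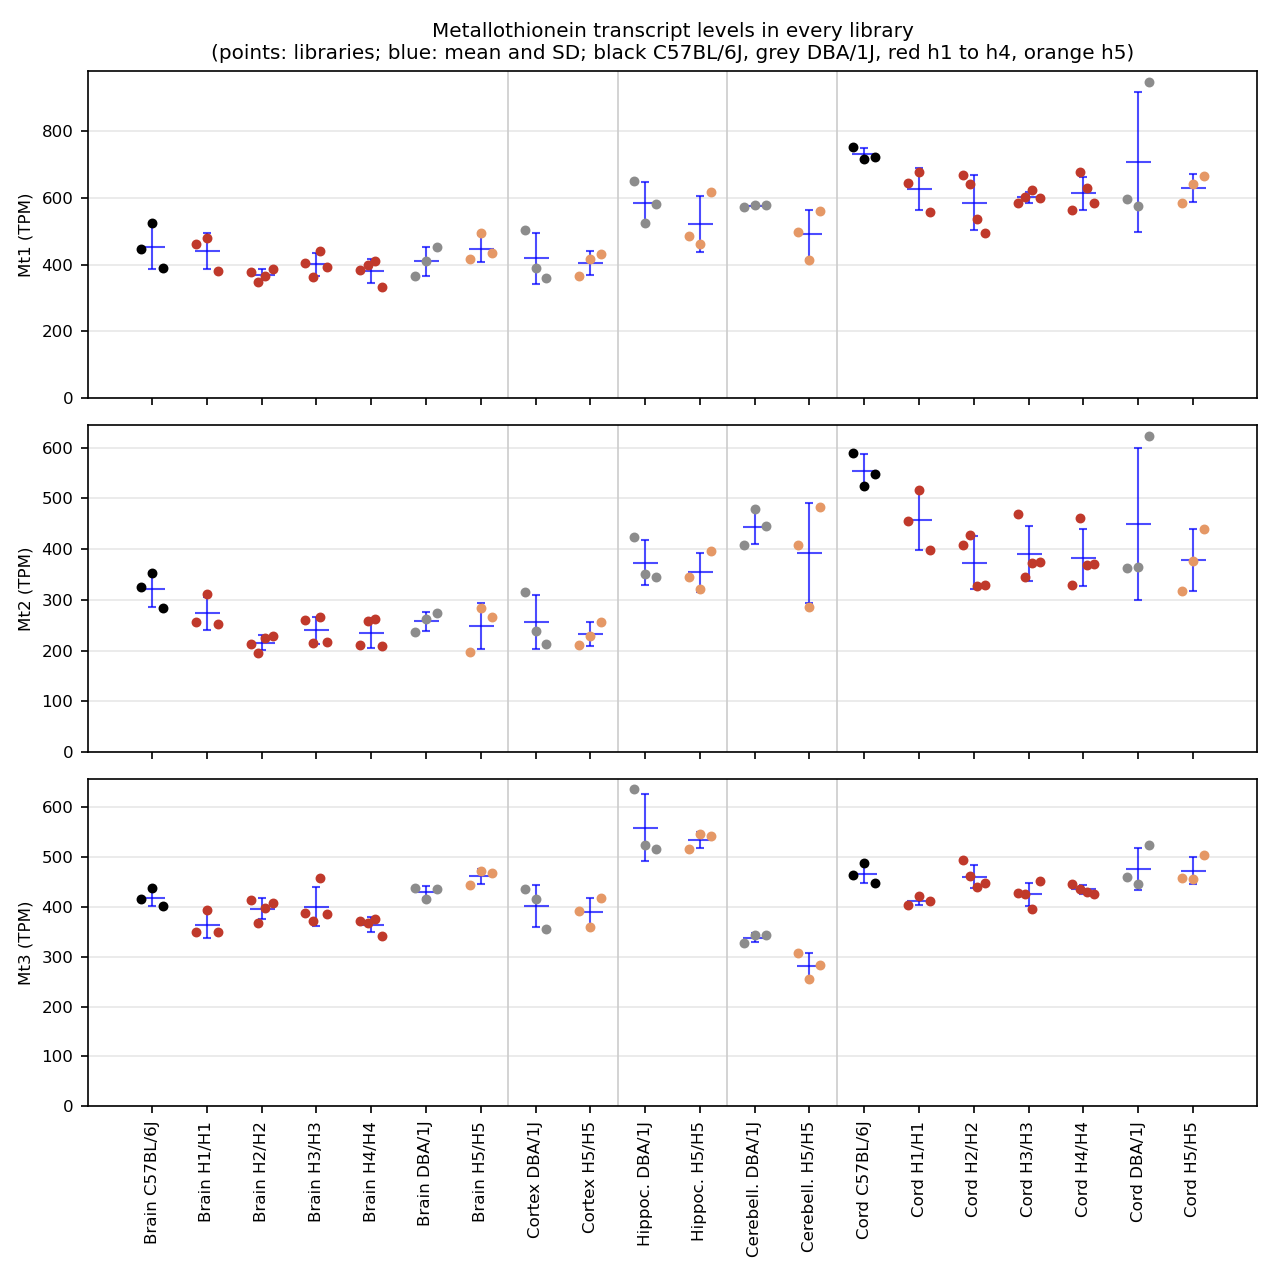
Level of Mt1, Mt2 and Mt3 (TPM, linear axis from 0) in each of the 66 libraries, in 20 groups by tissue and genotype, with the group mean and SD; H1/H1 to H5/H5 stand for Rorb h1/h1 to h5/h5. The 3 C57BL/6J cords lie between 717 and 751 TPM for Mt1 and between 525 and 589 TPM for Mt2, and Mt3 is lowest in cerebellum.

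Each mutant line was then compared with its controls within a tissue. In spinal cord, Mt2 was lower in every Rorb h1/h1, h2/h2, h3/h3 and h4/h4 mouse than in any C57BL/6J mouse. Against controls at 589, 525 and 549 TPM, the Rorb h2/h2 cords stood at 408, 428, 328 and 330.2 TPM. The Rorb h3/h3 cords stood at 469.8, 346, 372 and 374 TPM, replicate 1 being well above the other 3. The h4/h4 cords stood at 329, 462, 369 and 371 TPM. The first 2 Rorb h2/h2 mice were 7.9 weeks of age and the last 2 were 9.4, against 8.0 weeks in the controls. Their brains, at 214, 195, 225 and 229.5 TPM in that order, did not part by age in the same way. Rorb h3/h3 replicate 1, the highest of its cords, was 9.6 weeks of age. The part of age was not tested. The Rorb h1/h1 cords, at 456, 516 and 398 TPM, came nearest to the controls. The log2 fold changes from edgeR were -0.60 (SE 0.062) in Rorb h2/h2, a fold of 0.662, -0.52 (SE 0.081) in h3/h3, -0.52 (SE 0.071) in h4/h4 and -0.22 (SE 0.058) in h1/h1. The first 3 passed an adjusted p of 0.05 over all genes, in comparisons where 2.09%, 1.01% and 1.75% of genes tested were called in either direction. In Rorb h1/h1 cord, where 0.289% of genes were called, Mt2 was not among them. Groups that did not overlap, with the mutant lower, made up 8.46%, 6.99%, 6.9% and 6.85% of genes in the h1, h2, h3 and h4 cord comparisons. These shares are given beside the counts only, since the genes were chosen on the same contrasts. The 4 comparisons share their 3 control cords.

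Mt1 in spinal cord lay closer to its controls, which stood at 751, 717 and 722 TPM. It stood at 668, 642, 537 and 495 TPM in Rorb h2/h2, the first 2 at 7.9 weeks of age and the last 2 at 9.4. The brains of these mice stood at 378, 347, 367 and 386 TPM in that order. Cord levels were 583, 602, 624 and 599 TPM in h3/h3 and 563, 677, 628 and 584 TPM in h4/h4. The Rorb h1/h1 cords stood at 645, 678 and 557 TPM. No mutant cord of these 4 lines reached the lowest control. Log2 fold changes were -0.35 (SE 0.060), -0.30 (SE 0.056), -0.24 (SE 0.045) and -0.16 (SE 0.050) in Rorb h2/h2, h3/h3, h4/h4 and h1/h1, and the first 3 were called. All 3 calls were lost when the groups of the tissue were fitted together and with limma on log2(TPM + 1), and that in Rorb h3/h3 cord also with sex as a covariate and with a replicate block. Without C57BL/6J replicate 1 the calls for Mt1 in Rorb h2/h2, h3/h3 and h4/h4 cord and for Mt2 in h3/h3 cord were lost, while Mt2 in h2/h2 and h4/h4 cord was called in 7 of 7 fits that left out 1 library. Without C57BL/6J replicate 2 the Mt1 calls in Rorb h3/h3 and h4/h4 cord were lost, as was that in h3/h3 cord without h3/h3 replicate 2. Without C57BL/6J replicate 3, Mt2 in Rorb h1/h1 cord was called, at -0.26 (SE 0.059), and without h1/h1 replicate 3 Mt2 and Mt1 there were -0.14 and -0.10.

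Mt3 in spinal cord stayed near its controls. C57BL/6J cords stood at 464, 488 and 449 TPM and Rorb h2/h2 cords at 494, 462, 439 and 448 TPM. Log2 fold changes ran from -0.16 (SE 0.063) in Rorb h3/h3 to -0.05 (SE 0.054) in h2/h2, with overlap on the log2 CPM scale (counts scaled to library size) in all 4 lines. Single controls moved these values. Without C57BL/6J replicate 2 they were -0.08 in Rorb h3/h3, -0.03 in h1/h1 and -0.0019 in h4/h4, and without C57BL/6J replicate 3 they reached -0.18 in h1/h1 and -0.14 in h4/h4. On the TPM scale the Rorb h1/h1 cords, at 403, 423 and 412 TPM, and the h4/h4 cords, at 447, 437, 431 and 426 TPM, lay below the lowest control, as did 21.4% and 8% of all genes tested on that scale.

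In brain, Mt2 was again the member with the largest differences. C57BL/6J brains stood at 326, 352 and 284 TPM, Rorb h2/h2 brains at 214, 195, 225 and 229.5 TPM, h3/h3 brains at 260.4, 215, 266 and 217 TPM and h4/h4 brains at 210.4, 257, 263 and 209 TPM. Each brain of these 3 lines lay below the lowest control, whereas Rorb h1/h1 brains, at 257, 311 and 253 TPM, overlapped the controls. Log2 fold changes were -0.55 (SE 0.079, a fold of 0.682), -0.40 (SE 0.089), -0.39 (SE 0.093) and -0.21 (SE 0.094) in Rorb h2/h2, h3/h3, h4/h4 and h1/h1. Only Rorb h2/h2 was called of these 4, in comparisons where 0.136%, 0.164%, 0.703% and 0% of genes were called, and this call was lost in 3 of 7 fits that left out 1 library, namely C57BL/6J replicate 1, C57BL/6J replicate 2 or h2/h2 replicate 2. It was also lost with sex as a covariate, with a replicate block and with limma on log2(TPM + 1), while DESeq2 called it and also called Mt2 in Rorb h3/h3 and h4/h4 brain and h1/h1 cord. In the same order, genes without overlap, mutant lower, made up 4.13%, 5.31%, 6.43% and 5.03% of those tested. With the Pcp2 level as a covariate, a choice made after the uneven cerebellar content was seen, Mt2 differed by -0.49 (SE 0.074, called), -0.35 (SE 0.10), -0.45 (SE 0.13) and -0.14 (SE 0.073).

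Mt1 in brain stood at 447, 524 and 391 TPM in C57BL/6J and lay below that range in 1 line, Rorb h2/h2, at 378, 347, 367 and 386 TPM, with a log2 fold change of -0.27 (SE 0.071, not called, or -0.36, SE 0.060 and called without C57BL/6J replicate 3). In Rorb h3/h3, h4/h4 and h1/h1 brain its log2 fold changes were -0.16 (SE 0.083), -0.19 (SE 0.075) and -0.02 (SE 0.11), with overlap. The value in Rorb h3/h3 ran from -0.24 without C57BL/6J replicate 3 to -0.10 without h3/h3 replicate 2 or C57BL/6J replicate 1. Mt3 in brain gave another order. In Rorb h1/h1 it stood at 349, 393 and 349.7 TPM against 416, 437 and 403 TPM, with no overlap and a log2 fold change of -0.19 (SE 0.072). The Rorb h4/h4 brains, at 372, 367, 376 and 342 TPM, also lay below the lowest control on the TPM scale, as did 5.91% of genes tested, but overlapped the controls on the log2 CPM scale. In Rorb h4/h4, h2/h2 and h3/h3 brain Mt3 differed by -0.14 (SE 0.057), -0.06 (SE 0.062) and -0.05 (SE 0.073), and without C57BL/6J replicate 1 by -0.08 in h4/h4 and -0.0012 in h2/h2. With the Pcp2 covariate, Mt1 differed by -0.20, -0.06 and -0.16 in Rorb h2/h2, h3/h3 and h4/h4 brain, and Mt3 by -0.17 in h1/h1 and -0.19 in h4/h4 brain.

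**Figure D2:**
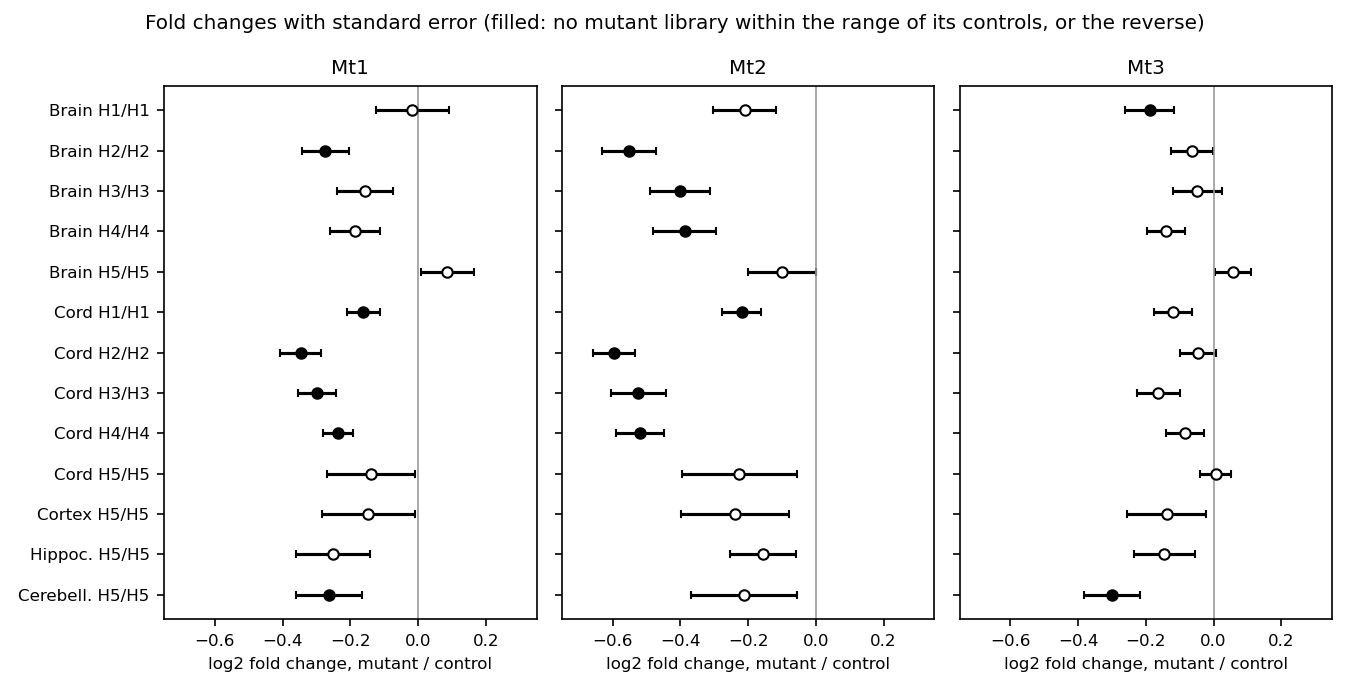
Log2 fold change of Mt1, Mt2 and Mt3 (edgeR, mutant against its control, bars are 1 SE) in the 13 comparisons; filled points mark comparisons whose libraries do not overlap on the log2 CPM scale. Mt2 lies below 0 in 13 of 13 comparisons and reaches -0.60 in Rorb h2/h2 spinal cord, but rises to 0.01 and 0.02 in h5/h5 brain and cord on leaving out 1 library, while Mt3 lies nearer to 0 in most.

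Rorb h5/h5 mice were compared with DBA/1J controls in brain and cord. Mt2 stood at 197, 283 and 267 TPM in Rorb h5/h5 brain against 237, 262 and 274 TPM in DBA/1J brain, and Mt1 at 416, 493 and 435 against 365, 412 and 452 TPM. Log2 fold changes in brain were 0.09 (SE 0.078) for Mt1, -0.10 (SE 0.10) for Mt2 and 0.06 (SE 0.053) for Mt3, and without the DBA/1J brain nearly without Pcp2 they were 0.03, -0.14 and 0.09. In TPM the Rorb h5/h5 brains lay above the controls for Mt3, at 445, 471 and 468 against 438, 417 and 435 TPM, without overlap on that scale, like 10.8% of genes tested, while on the log2 CPM scale, where 5.67% of genes tested had the mutant higher without overlap, they overlapped. In spinal cord 1 control decided the values: DBA/1J cords stood at 597, 576 and 948 TPM for Mt1 and 362, 364 and 623 TPM for Mt2, replicate 3 being far above the others. Rorb h5/h5 cords stood at 584, 642 and 665 TPM for Mt1 and 318, 376 and 439.9 TPM for Mt2, within the control range for Mt1. The log2 fold changes were -0.14 (SE 0.13) for Mt1 and -0.23 (SE 0.17) for Mt2, and 0.07 and 0.02 without DBA/1J replicate 3. Meningeal markers summed to 45.5, 63.2 and 372 TPM in the Rorb h5/h5 cords against 39 to 56.6 TPM in the controls. Their median log2 fold change of 1.93 (6 of 6 above 0) thus rests mostly on 1 cord. Red blood cell markers had a median of 0.58. The part of either in these values was not tested. None was called in brain or cord, where 0% and 0.00581% of genes were called.

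In the dissected regions all 9 fold changes of Rorb h5/h5 were below 0 and none was called, against 0%, 0.0118% and 0.012% of genes called in cortex, hippocampus and cerebellum. Single libraries moved them. In cortex, Mt1, Mt2 and Mt3 rose to 0.03, -0.04 and -0.04 without DBA/1J replicate 1, DBA/1J replicate 1 and Rorb h5/h5 replicate 2, and fell to -0.26, -0.37 and -0.24 without DBA/1J replicate 3. In hippocampus they rose to -0.16, -0.04 and -0.03 without DBA/1J replicate 1. In cerebellum they rose to -0.15, -0.02 and -0.22 without Rorb h5/h5 replicate 2, and Mt2 reached -0.39 without h5/h5 replicate 3. Cerebellum stood out by overlap. Mt3 stood there at 307, 256 and 283 TPM in Rorb h5/h5 against 327, 345 and 344 TPM in DBA/1J, a log2 fold change of -0.30 (SE 0.083), and Mt1 at 499, 413 and 560.4 against 571, 579.6 and 577 TPM, or -0.26 (SE 0.098), both without overlap, as were 5.9% of genes tested with the mutant lower. The summed TPM of 6 choroid plexus markers ran from 2542 to 3692 in the DBA/1J cerebella and from 15.03 to 2031 in the Rorb h5/h5 cerebella, with a median log2 fold change of -1.51, 6 of 6 below 0. The sum of 5 red blood cell markers ran from 658 to 791 TPM against 787 to 1450 TPM, with a median log2 fold change of 0.71. Their part in the cerebellar values was not tested. Mt2 in cerebellum overlapped, at 408, 286 and 482 against 409, 478 and 446 TPM. In hippocampus the log2 fold changes were -0.25 (SE 0.11), -0.16 (SE 0.097) and -0.15 (SE 0.089) for Mt1, Mt2 and Mt3, and in cortex -0.15 (SE 0.14), -0.24 (SE 0.16) and -0.14 (SE 0.12), all with overlap. In hippocampus choroid plexus markers had a median log2 fold change of -0.36, 6 of 6 below 0, and red blood cell markers one of 0.38, 5 of 5 above 0. In cortex endothelial markers had a median of -0.25, 6 of 6 below 0, meningeal markers 0.41 and red blood cell markers 0.35. Their part in these values was not tested. With the identifier series as a block the cortical values became 0.05, 0.01 and 0.04, the hippocampal values -0.10, 0.00 and -0.07, and the cerebellar values -0.17, -0.10 and -0.26 (SE 0.094).

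Over the 13 comparisons, log2 fold changes were below 0 in 12 for Mt1, 13 for Mt2 and 11 for Mt3, and edgeR called Mt1 in 3, Mt2 in 4 and Mt3 in 0. Without Rorb h5/h5 replicate 1 the value of Mt2 in h5/h5 brain was 0.01, without DBA/1J replicate 3 that in cord was 0.02, and with the identifier series as a block those in cortex and hippocampus were 0.01 and 0.00. Mt1 turned to 0.10 in Rorb h1/h1 brain without h1/h1 replicate 3, and was also above 0 without C57BL/6J replicate 1 or 2. It turned to 0.07 in Rorb h5/h5 cord without DBA/1J replicate 3 and to 0.03 in h5/h5 cortex without DBA/1J replicate 1. Mt3 turned to 0.01 in Rorb h3/h3 brain without C57BL/6J replicate 1, was also above 0 there without h3/h3 replicate 2, and turned to 0.04 in h2/h2 cord without C57BL/6J replicate 2. In Rorb h5/h5 cord Mt3 turned from 0.01 to -0.03 without h5/h5 replicate 3, and was below 0 without DBA/1J replicate 1. At an unadjusted p under 0.05 the numbers were 8, 8 and 5, where between 4.22% and 15.6% of genes tested were under it, and DESeq2 called them in 3, 7 and 0, where between 0.115% and 3.71% of genes were called. limma on log2(TPM + 1) called each of them in 0 comparisons, and a fit of all groups of a tissue together called Mt1 in 0 and Mt2 in 4. Between the control strains, DBA/1J minus C57BL/6J, the log2 fold changes in brain were -0.06 (SE 0.091) for Mt1, -0.24 (SE 0.083) for Mt2 and 0.12 (SE 0.066) for Mt3, and in cord -0.10 (SE 0.11), -0.35 (SE 0.13) and -0.02 (SE 0.062). None was called, against 11.2% of genes in brain and 21.3% in cord. The summed astrocyte markers did not overlap between the strains, at 2497 to 2631 against 3548 to 3785 TPM in brain and 3784 to 4405 against 5430 to 5699 TPM in cord. Their median log2 fold change was -0.23 in brain, 9 of 10 below 0 and 3 called lower. In cord it was -0.10, 7 of 10 below 0, 4 called lower and 1 higher. The sums hold S100b, which failed the low-count filter in each comparison of Rorb h5/h5 with DBA/1J, so 1 gene can widen the gap between the sums. The part of these markers in the strain values was not tested. Without C57BL/6J replicate 3, Mt2 in brain differed by -0.31 (SE 0.075) and was called. Without DBA/1J replicate 3, Mt1 and Mt2 in cord differed between the strains by -0.31 (SE 0.049) and -0.60 (SE 0.055) and were called. Without the DBA/1J brain nearly without Pcp2, the brain values were -0.01, -0.21 and 0.07.

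The level of Mt2 relative to Mt1 in the same library is unaffected by library size. The ratio is built from values that the genes were chosen on, and the lines compared with C57BL/6J share their controls. How often a ratio of other genes would part the groups was not computed, so the ratios are a description. In C57BL/6J brain the ratio of TPM was 0.709 on average, from 0.673 to 0.729, and each brain of the 4 lines compared with C57BL/6J lay below that range, the highest at 0.666 in Rorb h1/h1, 0.611 in h2/h2, 0.641 in h3/h3 and 0.643 in h4/h4. In C57BL/6J cord the ratio ran from 0.732 to 0.785, above the Rorb h2/h2 cords, at most 0.667, and the h4/h4 cords, at most 0.683. The Rorb h3/h3 cords ran from 0.575 to 0.806, with replicate 1 above every control, and the h1/h1 cords overlapped the controls. As mean differences of the log2 ratio, the lines differed from C57BL/6J by -0.19, -0.28, -0.25 and -0.21 in brain and by -0.06, -0.25, -0.23 and -0.29 in cord, from h1/h1 to h4/h4. The Rorb h5/h5 ratios overlapped those of DBA/1J in each tissue, with differences of -0.20 in brain, -0.09 in both cord and cortex, 0.10 in hippocampus and 0.03 in cerebellum. DBA/1J controls averaged 0.631 in brain and 0.632 in cord, 0.61 in cortex and 0.639 in hippocampus, and 0.771 in cerebellum.

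**Figure D3:**
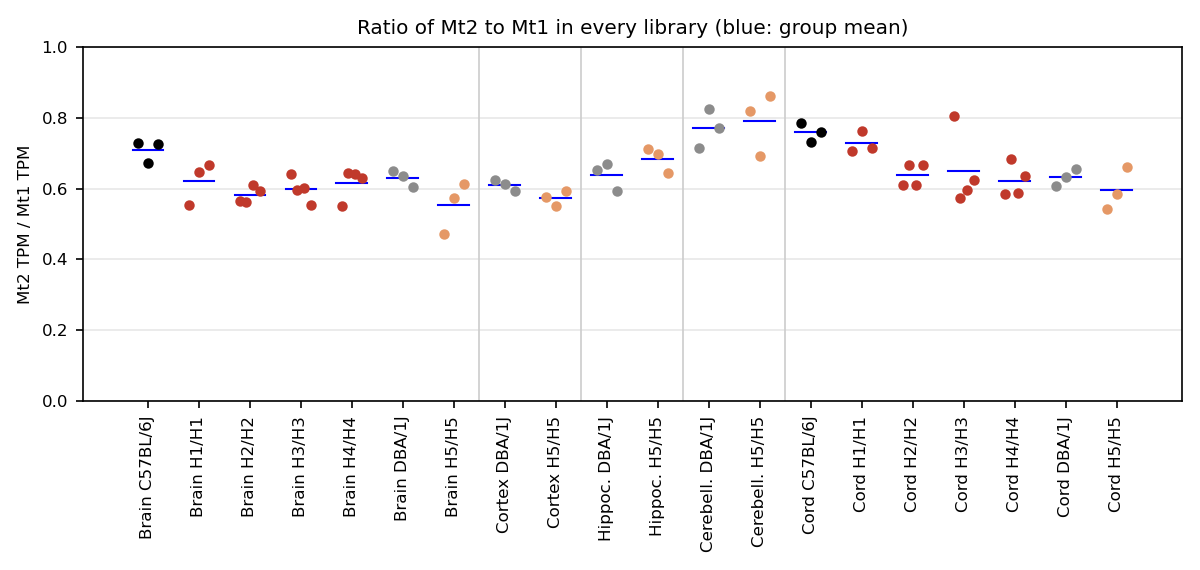
Ratio of Mt2 to Mt1 TPM in each library (linear axis from 0), with the mean of each of the 20 groups as a line; H1/H1 to H5/H5 stand for Rorb h1/h1 to h5/h5. The C57BL/6J brains, from 0.673 to 0.729, lie above each Rorb h1/h1, h2/h2, h3/h3 and h4/h4 brain. How often ratios of other genes part these groups was not computed.

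Whether a mouse with a high level in brain also had a high level in cord was tested over the 24 mice on deviations of log2 CPM from the group mean, a measure that did not enter the choice of the genes. P-values came from 100000 permutations within groups, two-sided, adjusted over 9 relations. Brain and cord deviations of Mt2 had r = 0.48 (permutation p = 0.0252, adjusted p = 0.04) and rho = 0.478 (p = 0.0329, adjusted p = 0.0593). Those of Mt1 had r = 0.48 (permutation p = 0.0267, adjusted p = 0.04) and rho = 0.469 (p = 0.043, adjusted p = 0.0644). Without the 2 mice farthest from the median in brain, r was 0.49 for Mt2 and 0.43 for Mt1. Mt3 gave r = -0.07 (permutation p = 0.808) and rho = -0.03 (permutation p = 0.92), with r = -0.18 without 2 mice. In the 18 mice of the groups that each had 1 identifier series, r was 0.43 for Mt2, 0.43 for Mt1 and -0.02 for Mt3. On log2(TPM + 1) in place of log2 CPM, r was 0.428 for Mt2 (permutation p = 0.0531) and 0.395 for Mt1 (permutation p = 0.0896), so the relation did not keep its threshold on that scale.

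**Figure D4:**
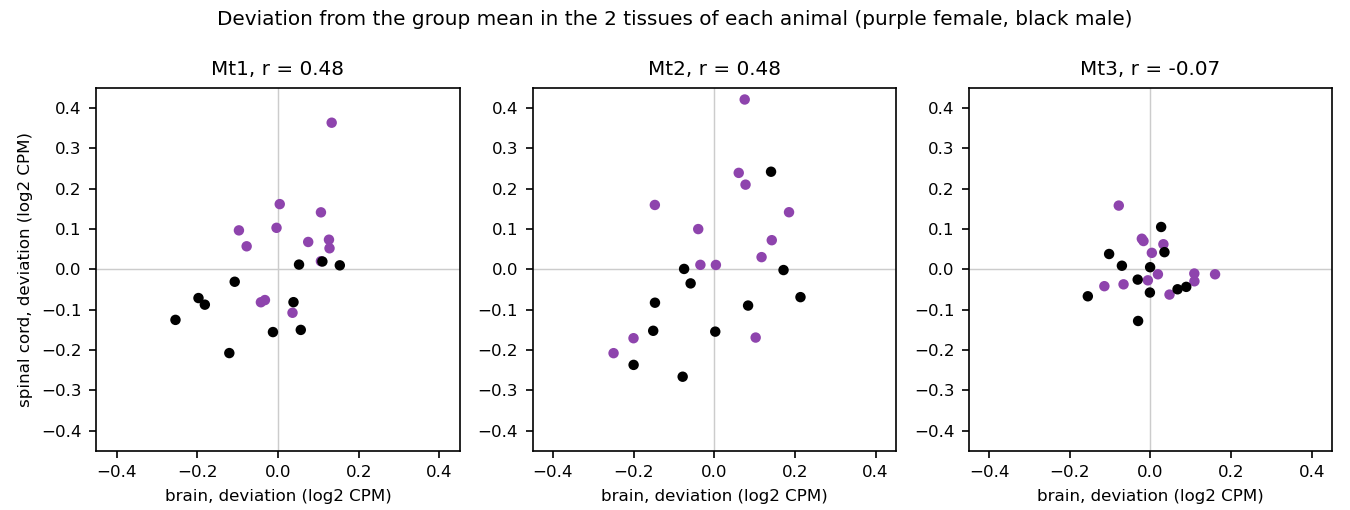
Deviation from the group mean of log2 CPM in brain (horizontal) against spinal cord (vertical) of the same 24 mice for Mt1, Mt2 and Mt3, females in purple and males in black. Points of Mt1 and Mt2 run upward to the right (r = 0.48 for both) and those of Mt3 do not (r = -0.07).

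Among mice of a group, Mt1 and Mt2 varied together. In brain r was 0.742 (permutation p = 0.00031, adjusted p = 0.00279; rho = 0.76, adjusted p = 0.00171) and 0.696 without the 2 farthest mice. In cord r was 0.798 (permutation p = 0.00131, adjusted p = 0.0059; rho = 0.779, adjusted p = 0.00257) and 0.663 without DBA/1J replicates 1 and 3, the farthest there. Mt3 varied with the others in brain, with r = 0.605 for Mt1 (permutation p = 0.0166, adjusted p = 0.0374; rho = 0.534, adjusted p = 0.0554) and r = 0.55 for Mt2 (permutation p = 0.0131, adjusted p = 0.0374; rho = 0.524, adjusted p = 0.0554). Without the 2 farthest mice these became 0.442 and 0.588. Cord gave r = 0.238 for Mt1 with Mt3 (permutation p = 0.221, adjusted p = 0.284; rho = 0.19, p = 0.413) and r = 0.165 for Mt2 with Mt3 (permutation p = 0.403, adjusted p = 0.454; rho = 0.202, p = 0.39), or 0.146 and 0.0589 without the 2 farthest. On log2(TPM + 1) the cord values were 0.622 for Mt1 with Mt3 (permutation p = 0.0283) and 0.594 for Mt2 with Mt3 (permutation p = 0.0349). Without the DBA/1J mouse whose brain was nearly without Pcp2, r in brain was 0.739 for Mt1 with Mt2, 0.675 for Mt1 with Mt3 and 0.588 for Mt2 with Mt3, and between brain and cord 0.44 for Mt1, 0.469 for Mt2 and -0.04 for Mt3. In the 18 mice with 1 identifier series per group, r in brain was 0.803, 0.726 and 0.723 for the same pairs of genes, and in cord 0.619, 0.146 and -0.03.

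Sex was compared over the 13 females and 11 males with genotype as a covariate. In spinal cord Mt1 was higher in females by 0.17 on the log2 scale (SE 0.044) and Mt2 by 0.17 (SE 0.068), and neither passed edgeR's test with adjustment over all genes (adjusted p = 0.224 and 0.692), where 0.146% of genes were called. Without DBA/1J replicate 3, the cord with the highest Mt1 and the only female of its group, the difference of Mt1 was 0.11 (adjusted p = 0.62). Mt3 in cord differed by 0.03 (adjusted p = 0.901). In brain, where 0.0855% of genes were called, the differences were 0.09 (SE 0.051) for Mt1, 0.02 (SE 0.062) for Mt2 and 0.04 for Mt3, with adjusted p of 0.993, 0.994 and 0.993.

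Genes that handle zinc and copper, the metals metallothioneins hold, were followed as a list of 33 transporters, chaperones and regulators, 30 of them tested in most comparisons. edgeR called 0 of 389 tests of these genes in the 13 comparisons, against 37 at an unadjusted p under 0.05 and 3 called by DESeq2, 1 higher and 2 lower. Mtf1, the factor that senses zinc and drives Mt1 and Mt2, had log2 fold changes from -0.09 to 0.17. The highest was in Rorb h4/h4 cord (SE 0.050, adjusted p = 0.12), where Mtf1 stood at 16.2 TPM on average against 14.4 TPM in C57BL/6J cord. Slc30a1, the exporter that MTF1 also drives, ranged from -0.04 to 0.21. The smallest adjusted p in the list was 0.06, for the zinc importer Slc39a2.

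Genes induced by glucocorticoids, which also raise Mt1 and Mt2, were called lower in some of the same comparisons. Of 20 tested, 7, 4 and 6 fell in Rorb h2/h2, h3/h3 and h4/h4 cord, where 2.09%, 1.01% and 1.75% of all genes were called, and 2, 2 and 3 in the brains of the same lines, where 0.136%, 0.164% and 0.703% were. In these cords 16, 12 and 19 of the 20 lay below 0. The calls in Rorb h2/h2 brain were lost with sex as a covariate and with a replicate block (0 and 0), and those in h3/h3 brain fell to 1 and 0, whereas h4/h4 brain had 3 and 5. With sex as a covariate the cords had 6, 2 and 8. None rose in any of the 13 comparisons. In the other 7 comparisons edgeR called 0 of 140 tests, with 22 at an unadjusted p under 0.05, all lower, and DESeq2 called 2, both lower. The list's median log2 fold change was -0.26, -0.11 and -0.22 in Rorb h2/h2, h3/h3 and h4/h4 cord and -0.11 in h1/h1 cord, while the median over all genes tested stayed within 0.005 of 0. Cdkn1a, an inhibitor of the cell cycle, fell in 6 comparisons, with log2 fold changes of -0.52, -0.56 and -0.49 in Rorb h2/h2, h3/h3 and h4/h4 cord (SE 0.061, 0.077 and 0.085, edgeR adjusted p = 0.000243, 0.0059 and 0.00888) and of -0.69, -0.61 and -0.89 in brain (SE 0.11, 0.084 and 0.11, adjusted p = 0.0407, 0.0166 and 0.00385). In cord it stood at 27.2 to 32 TPM in C57BL/6J and at 17.8 to 25 TPM in the 12 mutants, without overlap. Plin4, which coats lipid droplets, fell in 5 comparisons, with log2 fold changes of -0.90, -1.09 and -0.97 in the 3 cords and -1.19 and -1.32 in Rorb h2/h2 and h3/h3 brain. Tsc22d3, which encodes the glucocorticoid-induced leucine zipper, fell in 4, with -0.24, -0.28 and -0.30 in the cords and -0.48 in Rorb h4/h4 brain. Gjb6, an astrocyte gap junction gene, fell in 4, with -0.35, -0.33 and -0.30 in the cords and -0.32 in Rorb h4/h4 brain. In the regions of Rorb h5/h5 mice, where none was called, the list's median was -0.32 for cortex (18 of 20 genes below 0), -0.16 for hippocampus (20 of 20) and -0.17 for cerebellum (18 of 20). In Rorb h5/h5 brain it was -0.03 (13 of 20) and in cord 0.0006 (10 of 20). The genes named above are those of the list called most often. Most of the 20 were called by edgeR in no comparison, among them Fkbp5 and Per1 (smallest edgeR adjusted p = 0.53 and 0.557). The list was drawn up with results of these libraries known, so its direction is not independent evidence. The part of these genes, or of the hormone, in the metallothionein values was not tested.

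Of 10 targets of the oxidative stress factor NRF2, edgeR called 2 of 130 tests, both higher, while DESeq2 called 5 higher and 2 lower. The shares of all genes that edgeR called were 0.703% and 2.09% in the comparisons concerned. Slc7a11, the cystine importer, rose by 0.58 in Rorb h4/h4 brain (SE 0.076, adjusted p = 0.00486), and Prdx1, a peroxidase, rose by 0.12 in h2/h2 cord (SE 0.029, adjusted p = 0.0435).

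Markers of astrocytes, the cells that make most Mt1 and Mt2, were summed over 10 genes, none of them at 0 throughout. In brain the sums were 3548 to 3785 TPM in C57BL/6J, 3368 to 3639 in Rorb h1/h1, 3193 to 3452 in h2/h2, 3204 to 3590 in h3/h3 and 2980 to 3334 in h4/h4. In cord they were 5430 to 5699 TPM in C57BL/6J, 5148 to 5266 in Rorb h1/h1, 5203 to 5654 in h2/h2, 4762 to 5294 in h3/h3 and 5219 to 5689 in h4/h4, so the h2/h2 and h4/h4 ranges lay below the controls in brain and overlapped them in cord, and the h1/h1 and h3/h3 ranges the reverse. The marker S100b was tested in 8 of the 13 comparisons, those with C57BL/6J controls. Of 125 tests of these markers edgeR called 7. Glul, which encodes glutamine synthetase, fell in 4 comparisons, with log2 fold changes of -0.39 in Rorb h4/h4 brain and -0.23, -0.25 and -0.23 in the cords of h2/h2, h3/h3 and h4/h4 mice, Aqp4 and Slc1a2 fell in h2/h2 cord and Slc1a3 rose in h4/h4 cord. All of these calls lie in comparisons where 0.703% to 2.09% of all genes were called. Among other cell type markers, edgeR called 5 of 130 tests for neurons and 5 of 78 for endothelium, all lower, 2 of 78 for meninges, both higher, and 5 of 65 for red blood cells, 3 lower and 2 higher, and called 0 for choroid plexus and microglia, with 10 and 12 at an unadjusted p under 0.05 and 0 and 3 called by DESeq2. The neuronal calls were 3 in Rorb h2/h2 cord, where 10 of 10 markers lay below 0, and 2 in h4/h4 cord, and the meningeal calls were 1 in each of the same cords. The endothelial calls were all of Ly6c1, in Rorb h2/h2 and h4/h4 brain and in h2/h2, h3/h3 and h4/h4 cord. The red blood cell calls were lower in Rorb h2/h2 and h3/h3 brain, higher in h4/h4 cord and 1 each way in h2/h2 cord. Of the comparisons with these calls, Rorb h3/h3 and h4/h4 brain had neither Mt1 nor Mt2 called by edgeR. Mt2 nevertheless lay below its controls without overlap in both, and DESeq2 called it. Over all comparisons with these calls 0.136% to 2.09% of genes were called. In Rorb h3/h3 cord the median log2 fold change was -0.21 for meningeal markers (6 of 6 below 0), -0.53 for red blood cell markers and 0.23 for microglial markers. In h2/h2 and h4/h4 cord the meningeal medians were 0.10 and 0.02 and the red blood cell medians -0.25 and -0.20. In h2/h2 brain choroid plexus markers had a median of -0.30 and red blood cell markers one of -0.27. The part of these shifts in the metallothionein values was not tested.

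The genes most like each metallothionein were named by Spearman's rho over 19861 genes, as a description over libraries that share mice and depth. By deviations from the group means in 66 libraries, the closest to Mt1 was Mt2 (rho = 0.818), followed by Ndrg2 (0.708), Nde1 (0.659), the peroxidase gene Prdx6 (0.658) and Fam107a (0.641). Mt2 was followed by Mt1, Prdx6 (0.709), the ceramidase gene Acer2 (0.674), Fam107a (0.646) and Nde1 (0.614). Neither Mt1 nor Mt2 was among the 5 closest to Mt3, which included Rpl28 (0.726), Rpl37a (0.72), Mrps21 (0.712) and Rps25 (0.709), each of these encoding a protein of a ribosome. Over the 20 group means Mt1 and Mt2 were again closest to each other (rho = 0.943). Next to Mt1 came Eif1b (0.929), 9530068E07Rik (0.926), Cd9 (0.922) and Gm6787 (0.922), and next to Mt2 came Atp11a (0.937), Osbpl7 (0.925), Tns3 (0.922) and Gm6787 (0.916). For Mt3 the closest group means were those of Rpl36a (0.929), Mrfap1 (0.928), Rps26 (0.926), Mc4r (0.91) and Dmrt3 (0.91).

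Rorb itself (ENSMUSG00000036192, chr19:18930609-19111196) was followed as a check of the labels. In brain it averaged 11.9 TPM in C57BL/6J, 7.57 in Rorb h1/h1, 6.19 in h2/h2, 11.4 in h3/h3 and 3.07 in h4/h4, and in DBA/1J 12.2 against 16.7 in h5/h5. Cord ran the same way, from 8.19 TPM in C57BL/6J to 2.04 in Rorb h4/h4, with 8.05 in h3/h3 and 5.06 in h2/h2. The log2 fold change of Mt2 was -0.40 in brain and -0.52 in cord in Rorb h3/h3 mice, whose Rorb level was near that of the controls and so does not check that label, and -0.39 and -0.52 in h4/h4 mice.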

How the data were processed

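Poly(A) RNA was sequenced from 66 mouse libraries in 20 groups, 150 bases paired-end. Per the paper's methods, the authors trimmed reads with Trim Galore, aligned them to GRCm38 with STAR and estimated gene expression with RSEM; the annotation release is not given in the sources used here. The deposited tables hold an expected count (reads estimated per gene) and a TPM value (a level scaled by transcript length and library size) for 45706 identifiers, of which 41407 were paired with a symbol. Identifiers without a symbol held 1.52% to 12.7% of counts and stayed in the tests. Totals per library ran from 32889755 to 59120536 counts.

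Expected counts were rounded and tested with edgeR 4.0.16 (R 4.3.3; TMM scaling, filterByExpr, quasi-likelihood test, Benjamini-Hochberg adjustment over all genes tested, threshold 0.05), mutant against the study's control strain within a tissue, 13 comparisons, and between the control strains, 2 comparisons. The study used DESeq2, run here as an alternative (1.42.0), with limma 3.58.1 on log2(TPM + 1), where 1 is the pseudocount. Log2 CPM used a prior count of 2. Correlations were tested with 100000 permutations within groups in Python 3.11.15, where 1e-05 is the smallest p that can be given. Further alternatives were DESeq2 size factors, no filter on low counts, sex as a covariate, a replicate block, 1 fit of all groups of a tissue and leaving out each library. The identifier series as a block and the Pcp2 covariate were added after seeing the data. The edgeR code was tested on simulated data.

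The members and the lists were chosen with earlier results of these data known, and the tissue markers after the design was fixed. The genes named were Mt1 to Mt4, Rorb, Mtf1 and Slc30a1, of each list at most 4 genes called in the most comparisons (ties by the smallest adjusted p), and for each metallothionein the 5 genes with the highest Spearman's rho. A gene that this rule names is not reported here. Other markers named, Prdx1, Fkbp5 and Per1 fall under the same rule or were named after their values were seen. Replicate numbers were checked for pairing by correlating the deviations of same-numbered libraries from their group means: every pair exceeded 0.1 only in the comparison of Rorb h1/h1 and C57BL/6J brains (0.113 to 0.198). These 6 mice share 1 identifier series and same-numbered mice are of the same sex, while no pairing or litter is given in the labels.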

Additional observations from a re-analysis of the deposited data

Results flagged for a closer look

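Results were singled out where every mutant library of 1 group lay to one side of its control mean and every mutant library of another lay to the other side. The values are mean differences of log2 TPM, mutant minus control, and the difference between the groups was not tested. For Mt1 the Rorb h5/h5 brains lay above the DBA/1J mean by 0.13. The Rorb h2/h2, h3/h3 and h4/h4 brains differed from the C57BL/6J mean by -0.29, -0.17 and -0.25, and within Rorb h5/h5 mice the spinal cords differed by -0.13 and the cerebella by -0.24. For Mt3 the Rorb h5/h5 brains lay above the DBA/1J mean by 0.10. The Rorb h1/h1, h2/h2 and h4/h4 brains differed from the C57BL/6J mean by -0.20, -0.079 and -0.20, and in Rorb h5/h5 mice the hippocampi differed by -0.06 and the cerebella by -0.27. Each of these pairs involves the Rorb h5/h5 brains, whose DBA/1J controls include the brain with Pcp2 at 0.4 TPM. Without that control the edgeR log2 fold changes in Rorb h5/h5 brain were 0.03 for Mt1 and 0.09 for Mt3. The Mt1 value in Rorb h5/h5 cord rests on DBA/1J cord replicate 3, without which its edgeR log2 fold change was 0.07. Of 18 tests of a single distant library in groups of 4, 0 passed the critical value of Dixon.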

How the results depend on the processing

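Of 627 recomputed log2 fold changes of the 3 genes, 626 moved by less than the pooled SD between replicates and kept their direction where called. Values that were not called could change sign and still count among the 626, and several did, as given above. Mt2 in Rorb h5/h5 hippocampus moved to 0.00 (0.0026) with the identifier series as a block. Counts of calls over the 13 comparisons depended more on the fit. Mt1 was called in 3, and in 0 with 1 fit of all groups of a tissue and with limma on log2(TPM + 1), and in 0 to 4 on leaving out 1 library, lowest without C57BL/6J replicate 1 and 1 without C57BL/6J replicate 2. Mt2 was called in 4, in 7 with DESeq2 and with no low-count filter, in 0 with limma, and in 2 to 5 on leaving out 1 library, lowest without C57BL/6J replicate 1. Mt3 was called in 0 throughout. With a replicate block, Mt1 was called in 2 and Mt2 in 4, and NRF2 targets were called lower in 1 test against 0, as with sex as a covariate (1). The block and the sex covariate each lost the Mt2 call in Rorb h2/h2 brain and gained one in h1/h1 cord. Same-numbered mice are not known to be paired except by the correlation, over 0.1 in each pair, of Rorb h1/h1 and C57BL/6J brains, where the block changed no call of the 3 genes. The cause of these shifts was not tested. The zinc and copper list had 1 gene called higher and 2 lower with DESeq2 and 4 lower with no filter, against 0. The glucocorticoid list had 40 called lower with no filter against 24. NRF2 targets had 5 higher and 2 lower with DESeq2 and 4 higher and 2 lower with no filter, against 2 and 0. For sex, Mt2 in brain ran from -0.010 to 0.064 on leaving out 1 library (-0.010, -0.0072 and -0.00036 without Rorb h1/h1 replicate 3, C57BL/6J replicate 3 and Rorb h3/h3 replicate 3), and with no filter Mt1 and Mt2 in cord differed by 0.172 and 0.172, past the threshold, with SEs below those of the filtered fit (0.044 and 0.068, unadjusted p = 0.000683 and 0.0188). On log2(TPM + 1), correlations between brain and cord were 0.395 for Mt1, 0.428 for Mt2 and 0.033 for Mt3, and those with Mt3 in cord were 0.622 for Mt1 (permutation p = 0.0283) and 0.594 for Mt2 (permutation p = 0.0349). Each of the 3 genes had at least 1146 counts in each library, and each group held 3 or 4 mice. What limits the precision was not tested.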
